A study of Mus musculus with 34 samples.

Results

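Histone deacetylases of class II and class IV were followed across the RNA-seq libraries of aged mice with and without Hdac1. The 7 genes, taken by symbol and listed in every file among 23951 genes, were Hdac4, Hdac5, Hdac7 and Hdac9 of class IIa, Hdac6 and Hdac10 of class IIb, and Hdac11, the only class IV enzyme. Hippocampal RNA came from 4 control mice carrying the floxed Hdac1 allele without Cre (Hdac1f/f), 5 Hdac1 cKO mice (the same floxed allele with Nestin-Cre), 6 5XFAD mice (an amyloid model whose transgenes are driven by the Thy1 promoter) and 5 compound mice carrying both the Hdac1 deletion and 5XFAD. Control and Hdac1 cKO mice were 13 to 14 months old and the groups with 5XFAD were 13 months old. GFAP+ nuclei, sorted from frozen cortex of 13-month-old mice with antibodies against GFAP and the neuronal protein NeuN, gave a second set of 3 control and 4 Hdac1 cKO libraries. The Nestin-Cre deletion is directed at neurons and astrocytes and not at microglia, and whole tissue holds all of these. Each library is 1 mouse.

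Class IIa enzymes are signal-dependent corepressors. They bind MEF2 transcription factors, carry little deacetylase activity of their own, recruit the NCoR/SMRT complex with HDAC3, and are exported from the nucleus once calcium-dependent and other kinases create binding sites for 14-3-3 proteins. In neurons they are known for their link to synaptic activity and memory. HDAC6 is mainly cytoplasmic and deacetylates alpha-tubulin and HSP90, HDAC10 acts on acetylated polyamines, and HDAC11 removes long fatty acyl groups from lysines.

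The coding sequence marks the split between these subclasses at 1 codon of the active site. In the class IIa genes this codon is CAT, for histidine, where the other members have TAT or TAC, for tyrosine, a change known to lower deacetylase activity. The 30 coding bases around it, read from GENCODE vM1 transcripts with that codon in capitals, are shown because the results below are ordered by these subclasses.
Hdac4: gcccttgagggaggcCATgacctgacagcc
Hdac5: gccctggagggaggcCATgacttgaccgcc
Hdac7: gccttagagggtggaCATgacctcacggcc
Hdac9: gctctggaaggaggaCATgatctgacagct
Hdac6, first catalytic domain: tccctggagggtggcTATaacctccgtgcc
Hdac6, second catalytic domain: attctagagggtggaTACaatttggcatct
Hdac10: gtgttggagggtggcTACcacttggagtcc
Hdac11: gtgacctcgggtgggTACcagaagcgcaca

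On the mm9 genome (NCBIM37) the class IIa windows lie on the minus strand, each inside a single coding exon: Hdac4 at chr1:93842525-93842554 in exon 23 of 26, Hdac5 at chr11:102057901-102057930 in exon 26 of 29, Hdac7 at chr15:97626577-97626606 in exon 22 of 25 and Hdac9 at chr12:34792131-34792160 in exon 12 of 16. The Hdac11 window lies on the plus strand at chr6:91123109-91123138, in exon 10 of 10. The windows of the class IIb genes, on the minus strand, each cross an exon junction. The codon itself lies at chrX:7515610-7515612 and chrX:7509355-7509357 in Hdac6 and at chr15:88956503-88956505 in Hdac10. Exon numbers count along the GENCODE transcript used. Some reads may not be assignable to a single gene. Hdac4, Hdac7 and Hdac11 are each overlapped by an annotated gene on the opposite strand (Gm17418 for Hdac4, Slc48a1 and Gm17532 for Hdac7, and Gm14573 for Hdac11), and whether the counting used strand is not given in the sources used here.

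The targeted gene was checked first. Hdac1 was 7.93 ± 2.20 FPKM (SD, n = 4) in control hippocampus and 2.74 ± 0.28 (n = 5) in Hdac1 cKO hippocampus, with no overlap (p = 0.0159 by a two-sided exact permutation test, the lowest value possible with 4 and 5 mice). It was 8.23 ± 1.56 in 5XFAD (n = 6) and 1.92 ± 0.52 in compound mice (n = 5), again without overlap (exact permutation p = 0.00433, the smallest possible). In the GFAP+ nuclei Hdac1 overlapped between 15.5 ± 6.25 FPKM in controls (n = 3) and 8.95 ± 2.40 in Hdac1 cKO (n = 4; exact permutation p = 0.114 on log2(FPKM + 1)), although the same difference met the DEG rule in limma (-0.70 on the log2 scale, adjusted p = 0.984). Markers of the choroid plexus, a secretory epithelium next to the hippocampus, varied widely between hippocampal libraries. The summed FPKM of 8 such markers ran from 592 to 20498 in control, from 59.8 to 1635 in Hdac1 cKO, from 56.5 to 8012 in 5XFAD and from 62.7 to 14084 in compound libraries, and control 1 was the lowest control. Markers of microglia were 203 to 268 FPKM in sum in control, 216 to 236 in Hdac1 cKO, 443 to 586 in 5XFAD and 456 to 948 in compound libraries. The number of fragments behind the FPKM values of each library is not given in the files. The spacing of low values put it at roughly 2240000 to 7070000 for the hippocampus and 6480000 to 9330000 for the nuclei. In bulk tissue, fewer cells of a type and less RNA per cell cannot be told apart.

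Hdac11 was by far the most abundant member in the hippocampus. It averaged 88.3 ± 13.9 FPKM over the 20 hippocampal libraries (SD), against 13.6 ± 1.94 for Hdac5, 5.61 ± 1.27 for Hdac4, 5.15 ± 0.96 for Hdac6, 4.41 ± 0.78 for Hdac9, 2.11 ± 0.47 for Hdac7 and 1.82 ± 0.60 for Hdac10. FPKM is a level per transcript length. Hdac11 took between 69.5% and 77.1% of the summed FPKM of the 7 genes in every hippocampal library, and Hdac5 between 8.21% and 14.3%. These shares depend on the length scaling and were not recomputed without it. In control hippocampus the means were 79.6 FPKM for Hdac11 and 13.1 for Hdac5. Multiplied by transcript length in kb they were 211 and 63.5. On the FPKM scale Hdac11 exceeded 95.5% of all listed genes and Hdac10 exceeded 52.0%.

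Within control hippocampus the order was Hdac11, Hdac5, Hdac6, Hdac4, Hdac9, Hdac7 and Hdac10. Hdac11 and Hdac5 stood apart from each other and from the rest in all 4 groups, with no overlapping ranges. Hdac6 and Hdac4 overlapped, as did Hdac4 and Hdac9, and Hdac7 and Hdac10, so the order within these neighbours was not resolved. Hdac9 lay above Hdac7 without overlap in each group. Because a 3′ library yields fragments from 1 end of each transcript whatever its length, the order was also taken from FPKM multiplied by transcript length. Hdac11, Hdac5, Hdac7 and Hdac10 kept ranks 1, 2, 6 and 7, while Hdac9 moved from rank 5 to 3, Hdac6 from 3 to 4 and Hdac4 from 4 to 5. The length used was that of the longest annotated coding transcript. The annotation splits Hdac4 into 2 adjacent gene models, so the ranks of these 3 genes were not settled.

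**Figure D1:**
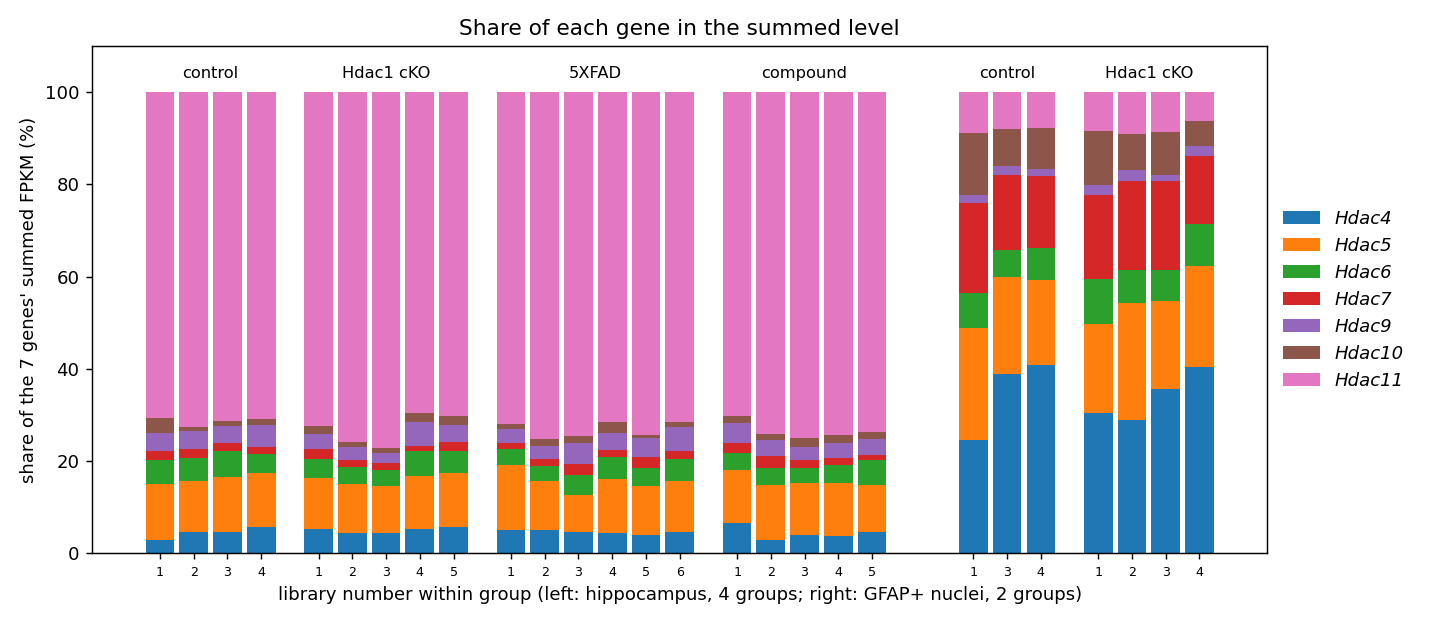
Share of each of the 7 genes in their summed FPKM (y axis, percent), 1 bar per library, with library numbers on the x axis. The shares depend on the scaling of FPKM by transcript length. Hdac11 fills between 69.5% and 77.1% of every hippocampal bar on the left, whereas Hdac4 takes the largest share in each of the 7 bars of GFAP+ nuclei on the right, in control 1 with 24.5% against 24.3% for Hdac5.

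Each member was then compared between the groups to ask whether loss of 1 class I enzyme, amyloid pathology, or both went with a changed level of the other deacetylases. None of the 7 genes met the study's criterion for a differentially expressed gene (DEG), a fold change of at least 1.5 with an unadjusted p under 0.05, in any of the 8 comparisons. Over the 56 tests (limma on log2(FPKM + 1)) none had an unadjusted p under 0.05, and the smallest Benjamini-Hochberg adjusted p was 0.503. Of all genes tested, between 4.70% (nuclei) and 11.9% (5XFAD averaged over both Hdac1 genotypes) had an unadjusted limma p under 0.05. Many of the 56 tests share mice and are not independent. In each 2-group comparison the ranges of both groups overlapped for every member. Ranges without overlap were few over all genes too: 604 of 14265 in Hdac1 cKO against control and 418 of 14402 in 5XFAD against control. They were 613 of 14348 in compound against control, 87 of 14326 in compound against 5XFAD and 862 of 15070 in the nuclei. The overlap of every member is therefore no result about these genes in particular.

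Hdac4, the class IIa member studied most for memory, had the largest difference of the 7 genes in Hdac1 cKO and in 5XFAD against control, in compound against 5XFAD and in the interaction, but not in the other 4 comparisons, and none passed the test. Its levels were 2.96, 5.36, 5.59 and 6.16 FPKM in control mice and 6.06, 5.73, 6.65, 5.59 and 6.70 in Hdac1 cKO mice. The 5XFAD mice ran from 5.23 to 8.26 with a median of 5.55, and the compound mice had 7.32, 2.94, 4.14, 4.88 and 6.06. Control 1 and compound 2 were the lowest of the 20 libraries, and the groups overlapped. The log2 difference from control was 0.28 (SE 0.17, limma adjusted p = 0.555) in Hdac1 cKO, 0.24 (SE 0.18) in 5XFAD and 0.0010 (SE 0.24) in compound mice. Without control 1 these were 0.09, 0.05 and -0.19. Compound against 5XFAD gave -0.24 (SE 0.18, limma adjusted p = 0.799), which was -0.37 without compound 1, -0.16 without 5XFAD 2 and -0.096 without compound 2.

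Hdac5, which shares the calcium-regulated export of Hdac4, had the lowest coefficient of variation of the class IIa genes over the 20 libraries (14.3%). This did not hold within 5XFAD mice (22.0%) or within Hdac1 cKO mice (8.86%, against 8.37% for Hdac4). Control mice had 11.8, 13.2, 14.6 and 12.7 FPKM and Hdac1 cKO mice 12.9, 14.1, 15.6, 12.5 and 13.5. In 5XFAD mice it ran from 9.51 to 17.7 with a median of 14.5, a wider range that enclosed all other hippocampal libraries, and compound mice had 12.7, 12.1, 11.6, 14.6 and 13.5. The log2 differences were 0.07 (SE 0.10) for Hdac1 cKO, 0.09 (SE 0.16) for 5XFAD and -0.02 (SE 0.11) for compound mice against control, with limma adjusted p between 0.856 and 0.974. Single mice moved these values by more than 1.5 times. The Hdac1 cKO value was smaller without Hdac1 cKO 3 and larger without control 3. The 5XFAD value was larger without 5XFAD 3 and smaller without 5XFAD 1.

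Hdac7, a class IIa enzyme best known from endothelium and developing lymphocytes, was low throughout the hippocampus. Control mice had 1.97, 2.42, 2.27 and 1.81 FPKM, and Hdac1 cKO mice 2.39, 1.73, 2.29, 1.19 and 2.18. The 5XFAD mice ran from 1.74 to 3.04 with a median of 2.29, and compound mice had 2.33, 2.73, 1.59, 1.95 and 1.42. The groups covered much the same range, and the log2 differences from control lay between -0.09 (SE 0.17, Hdac1 cKO) and 0.08 (SE 0.16, 5XFAD). At this level counting error matters: the estimated median of 38.8 fragments per library alone gives an SD of 16.1% of the value, against an observed coefficient of variation of 22.2%.

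Hdac9, the remaining class IIa gene, had 3.78, 4.47, 4.37 and 5.01 FPKM in control and 3.70, 3.95, 3.22, 5.50 and 4.20 in Hdac1 cKO mice. In the 6 5XFAD mice Hdac9 ran from 3.58 to 5.82 with a median of 5.10, and compound mice had 4.85, 3.58, 3.07, 4.24 and 4.61. The highest library was a 5XFAD mouse and the lowest a compound mouse, but the ranges of both groups overlapped. Compound against 5XFAD differed by -0.23 on the log2 scale (SE 0.14, limma adjusted p = 0.759). Hdac1 loss averaged over both backgrounds gave -0.16 (SE 0.10, adjusted p = 0.647), the largest averaged value of any member in that comparison, which was -0.072 with a choroid plexus marker score as a covariate.

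**Figure D2:**
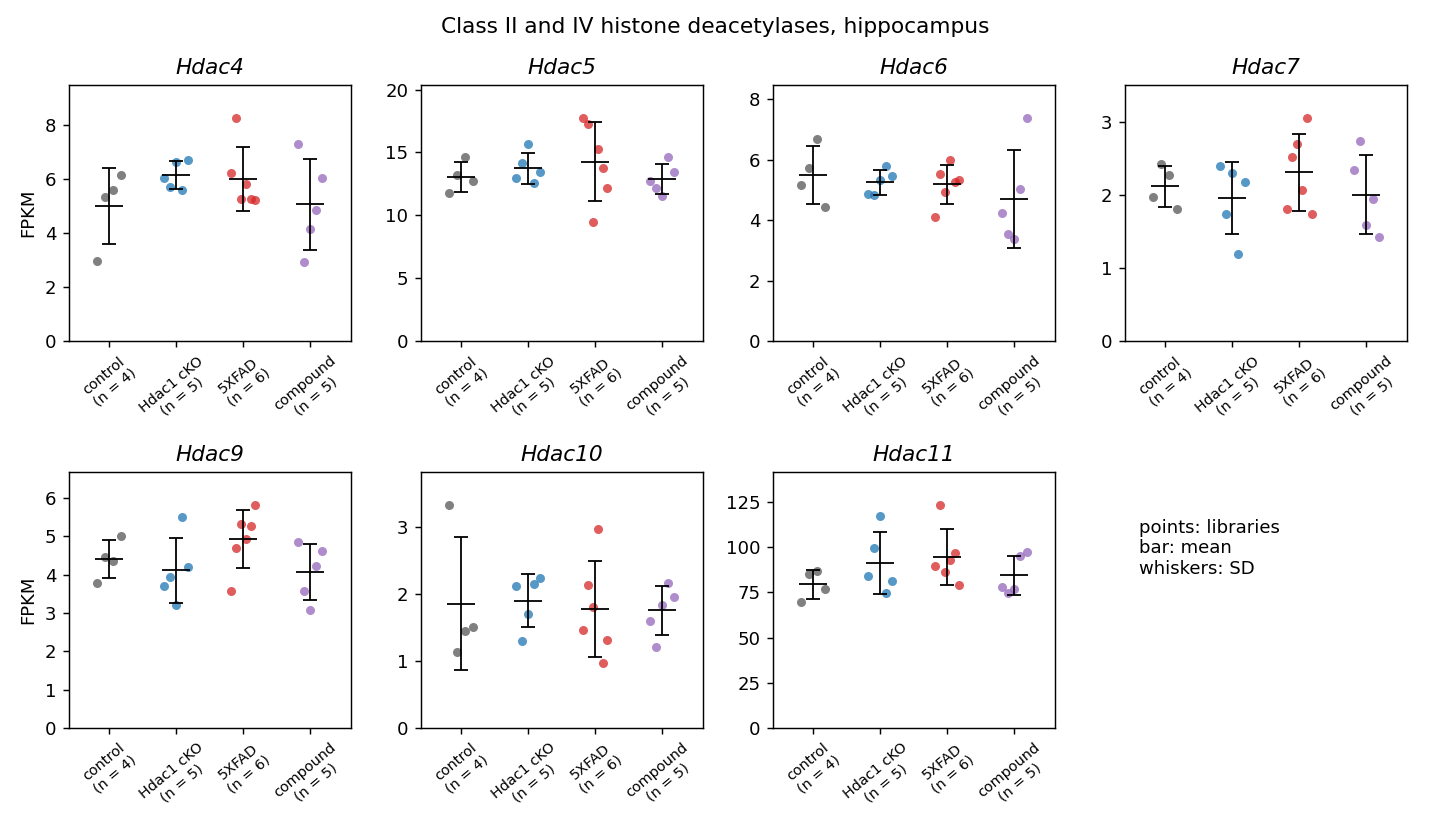
FPKM of each gene (y axis, from 0, own scale per panel) in the 20 hippocampal libraries by group, with points for mice, a bar for the mean and whiskers for the SD. In every panel the groups overlap, and the low Hdac4 and high Hdac10 points of the control group both belong to control 1.

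Hdac6, the tubulin deacetylase, had 5.16, 5.72, 6.69 and 4.44 FPKM in control mice and 4.86, 4.85, 5.32, 5.78 and 5.47 in Hdac1 cKO mice. The 5XFAD mice ran from 4.09 to 5.99 with a median of 5.30, and compound mice had 4.25, 3.53, 3.37, 5.03 and 7.38. The compound group held both the highest and the lowest library of all 20, and its coefficient of variation was 34.6% against 7.71% in Hdac1 cKO mice. Compound against control gave a log2 difference of -0.22 (SE 0.20, limma adjusted p = 0.757), which ran from -0.37 without compound 5 to -0.13 without compound 3 or without control 3. 5XFAD averaged over both Hdac1 genotypes gave -0.12 (SE 0.11, limma adjusted p = 0.752), and -0.19 without compound 5 and -0.075 without compound 3.

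Hdac10, the polyamine deacetylase, had the lowest mean of the members in each hippocampal group, though its range overlapped that of Hdac7. Control mice had 3.33, 1.14, 1.44 and 1.51 FPKM, Hdac1 cKO mice 2.12, 1.29, 1.70, 2.15 and 2.24, and compound mice 1.60, 1.21, 1.84, 2.17 and 1.96. Levels in 5XFAD mice ran from 0.972 to 2.98 with a median of 1.63. Control 1 was the highest of the 20 libraries and lay above the other 3 controls by more than their whole spread. The estimated median of 20.1 fragments per library gives a counting SD of 22.3%, against an observed coefficient of variation of 32.8%. The observed spread also holds differences between mice, control 1 among them. Whether small differences in Hdac10 could be detected was not tested. The log2 differences from control were 0.07 (SE 0.21) for Hdac1 cKO, -0.02 (SE 0.23) for 5XFAD and -0.0059 (SE 0.22) for compound mice. The first of these was 0.29 without control 1, -0.051 without control 2 and -0.52 with a choroid plexus marker score as a covariate, so its direction was not settled.

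Hdac11, the class IV enzyme, had 69.6, 85.2, 86.7 and 76.8 FPKM in control mice and 84.0, 99.6, 117, 74.7 and 81.1 in Hdac1 cKO mice. The 5XFAD mice ran from 78.9 to 123 with a median of 91.2, and compound mice had 78.2, 74.8, 76.9, 95.2 and 97.5. The means of all 3 mutant groups lay above the control mean of 79.6, yet each range overlapped that of the controls. The log2 differences from control were 0.18 (SE 0.13) for Hdac1 cKO, 0.24 (SE 0.12) for 5XFAD and 0.08 (SE 0.11) for compound mice, with limma adjusted p of 0.626, 0.503 and 0.848. The first was 0.089 without Hdac1 cKO 3 and 0.12 without control 1, and the last was 0.021 without control 1 and 0.030 without compound 5. With about 1210 estimated fragments per library the counting SD is only 2.87%, against an observed coefficient of variation of 15.8%.

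The members were then read against all genes. The background of genes called by the same rule was 3.36% of 14265 genes tested for Hdac1 cKO against control, 2.95% of 14402 for 5XFAD against control, 4.24% of 14348 for compound against control and 1.28% of 14326 for compound against 5XFAD. A count of 0 of 7 in each comparison is near those shares and is no result about these genes in particular. The median absolute log2 difference of the members was 0.09 against 0.14 over all genes for Hdac1 cKO, 0.09 against 0.14 for 5XFAD, and 0.07 against 0.14 for compound mice. In compound against 5XFAD mice it was 0.15 against 0.13, and 6 of the 7 values were negative.

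The intervals show which sizes of difference the data allow. Across all 20 hippocampal mice, Hdac1 loss averaged over both backgrounds gave 0 of 7 members called (background 1.33% of 14389), and every 95% interval lay between -0.37 and 0.34 on the log2(FPKM + 1) scale. For 5XFAD averaged over both Hdac1 genotypes (0 of 7 called, background 2.22%) every interval lay between -0.34 and 0.28. A difference of 0.58 on this scale, which is 1.5-fold in FPKM + 1, therefore lay outside the interval of each of the 7 genes in both averaged comparisons. An averaged interval does not bound the difference within either background. For Hdac4 the averaged Hdac1 loss of 0.02 combines 0.28 without 5XFAD and -0.24 on the 5XFAD background. In FPKM itself the bounds are wider for the low members, Hdac7 and Hdac10 most of all, since 1 FPKM was added before taking logs. In each 2-group hippocampal comparison 6 of the 7 intervals stayed within 1.5-fold in FPKM + 1. The exceptions were Hdac4 in Hdac1 cKO and in 5XFAD against control and in compound against 5XFAD, and Hdac6 in compound against control. In the interaction 4 of 7 stayed within it, and the intervals of Hdac4, Hdac10 and Hdac11 did not, with bounds over the 7 genes from -1.06 to 0.53.

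**Figure D3:**
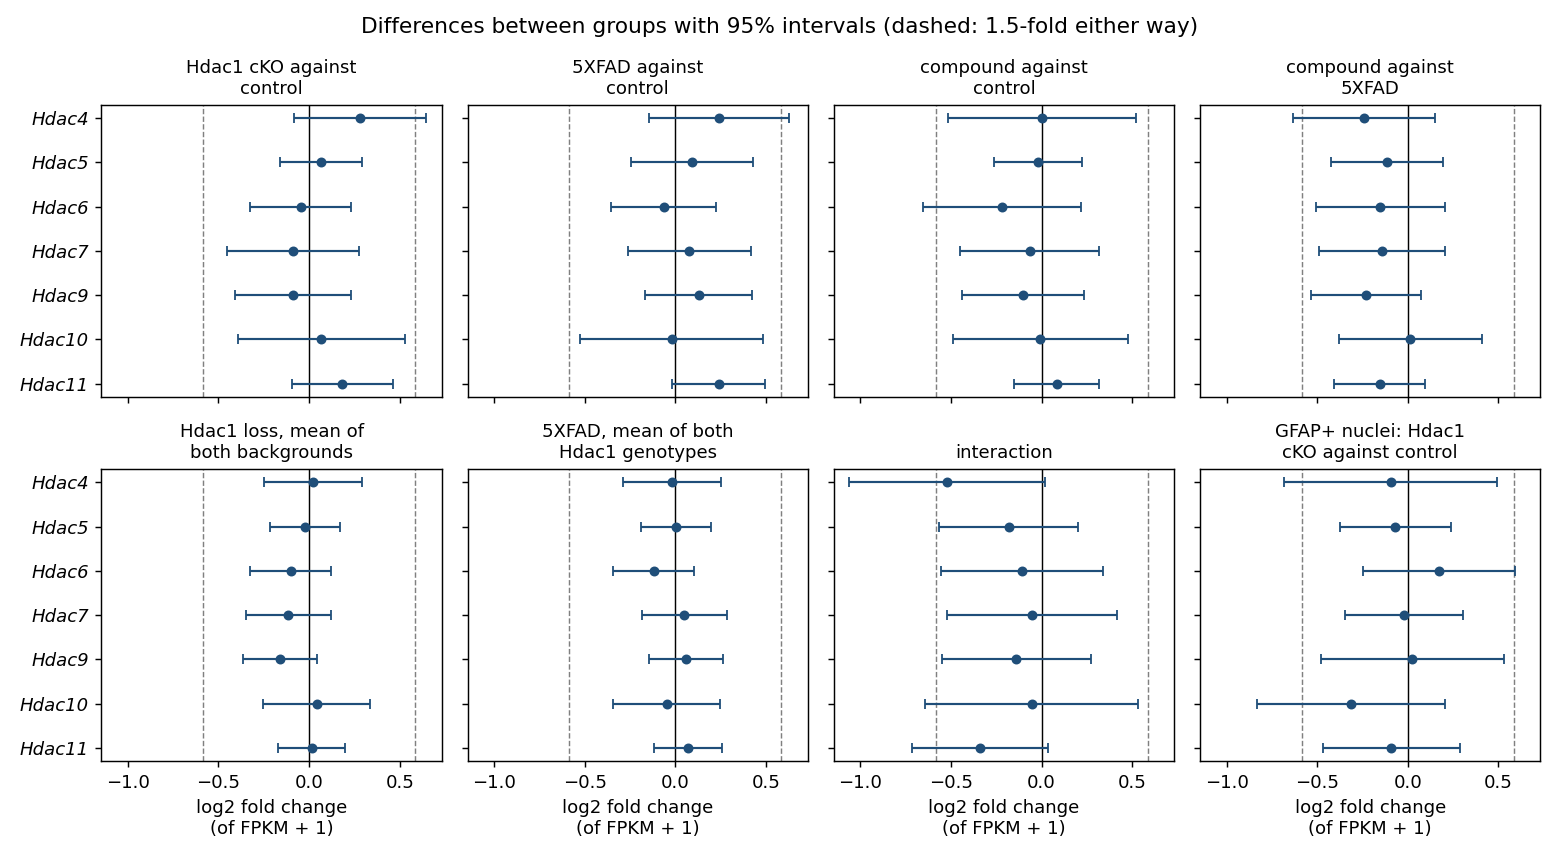
Log2 fold change of FPKM + 1 (x axis) for the 7 genes (y axis) in 8 comparisons, with points for the limma estimate, bars for the 95% interval and dashed lines at 1.5-fold in FPKM + 1 either way. Every interval includes 0, and in the averaged comparisons every interval stays inside the dashed lines.

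The interaction asks whether the effect of Hdac1 loss differs between mice with and without 5XFAD. All 7 estimates were negative, meaning that the log2 difference tied to Hdac1 loss was lower on the 5XFAD background, but 0 of 7 genes were called (background 4.07% of 14389). Hdac4 had the largest value, -0.52 (SE 0.26, limma adjusted p = 0.572), followed by Hdac11 with -0.34 (SE 0.18, adjusted p = 0.590). Without compound 1 the Hdac4 value was -0.65, without compound 5 it was -0.59 and without control 4 it was -0.62, each of which met the DEG rule (limma adjusted p from 0.426 to 0.604). Without control 1 it was -0.33 (adjusted p = 0.712). The 7 estimates share the same mice and are not independent of each other.

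Hdac4 followed the choroid plexus markers among hippocampal libraries. With group means removed, Pearson's r between Hdac4 and the choroid plexus score, the mean log2(FPKM + 1) of 8 markers, was 0.64 over the 20 libraries, the highest of the 49 correlations between a member and a cell type score. Control 1 had a score of 2.42 and 2.96 FPKM of Hdac4, against scores of 5.54 to 6.12 and 5.36 to 6.16 FPKM in the other 3 controls. Compound 1 had the highest score of its group, 5.32, and its highest Hdac4, 7.32 FPKM. The correlation was not recomputed without control 1 and compound 1. The Hdac1 cKO libraries had scores of 1.14 to 3.00 yet Hdac4 of 5.59 to 6.70 FPKM, whereas compound libraries at like scores of 1.21 to 1.59 had 2.94 to 6.06 FPKM, with compound 2 near control 1. With the score as a covariate the difference for Hdac1 cKO against control rose to 0.91 (SE 0.22, limma adjusted p = 0.420) and the interaction to -0.77 (SE 0.23, adjusted p = 0.599), and both then met the DEG rule with its unadjusted p. In that fit the only control at a low score is control 1, and without control 1 the difference, with no covariate, was 0.09 (limma adjusted p = 0.831). The score itself was lower in Hdac1 cKO mice (8 of 8 markers called lower, 0 with an adjusted p under 0.05), and its part in the Hdac4 values was not tested further.

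**Figure D4:**
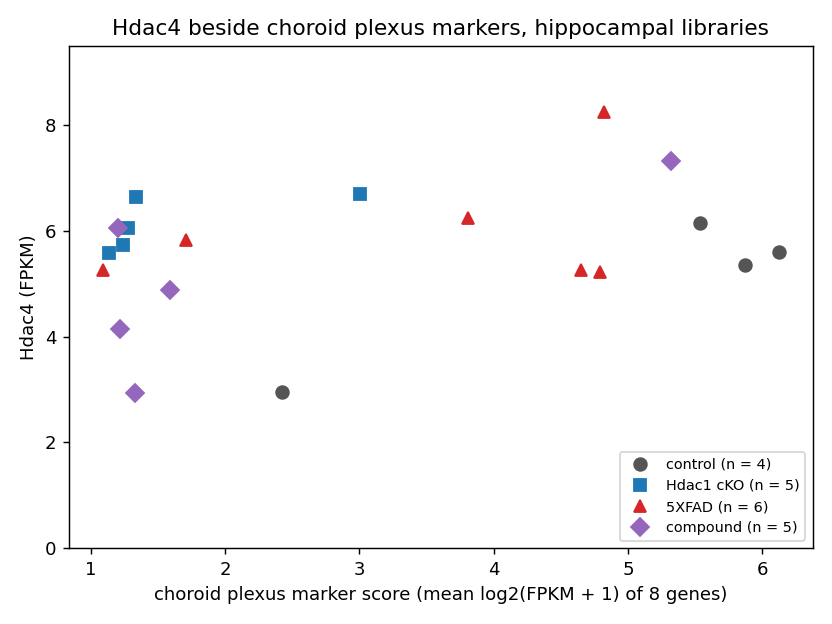
Hdac4 in FPKM (y axis, from 0) against the choroid plexus marker score (x axis) in the 20 hippocampal libraries, with 1 point per mouse and a symbol per group. Control 1 is the single control at a low score and has 2.96 FPKM, whereas the Hdac1 cKO mice at scores of 1.14 to 3.00 have 5.59 to 6.70 FPKM and the 4 compound mice at scores of 1.21 to 1.59 have 2.94 to 6.06 FPKM.

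Other members showed weaker relations of this kind, again described with no test. Hdac6 went with the astrocyte score (r = 0.59, n = 20 libraries) and Hdac7 with the endothelium score (r = 0.56). Among the 21 pairs of members, 5 had r above 0.4 and none below -0.4. The highest was Hdac5 with Hdac11 (r = 0.65), then Hdac4 with Hdac11 (r = 0.50), Hdac6 with Hdac9 (r = 0.48), Hdac4 with Hdac5 (r = 0.46) and Hdac6 with Hdac11 (r = 0.41). All values of a library share its depth and composition. Of 14389 genes, those most like each member across the 20 libraries with group means removed were Sfrp1 for Hdac4 (r = 0.89), Acbd6 for Hdac5 (0.87), Nadk for Hdac6 (0.87), Cyth3 for Hdac7 (0.85), Kctd12 for Hdac9 (0.82), Pam for Hdac10 (0.81) and Twf2 for Hdac11 (0.84). The next 2 for Hdac4 were Nek5 (0.85) and Csad (0.85), for Hdac5 Man1b1 (0.87) and Dctn1 (0.85), for Hdac6 Gpr137 (0.82) and Acat2 (0.81), and for Hdac7 Art3 (0.75) and Zfp712 (0.74). For Hdac9 they were Unc119b (0.81) and Wnt5a (0.79), for Hdac10 Alox12 (0.79) and D030040B21Rik (0.77), and for Hdac11 Pomgnt2 (0.84) and Ccnf (0.84). They are the top of a ranking over all those genes.

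In GFAP+ cortical nuclei the order of the members was another one. Hdac4 led with 52.6 ± 14.2 FPKM over the 7 libraries (SD), followed by Hdac5 with 32.0 ± 2.38, Hdac7 with 26.4 ± 2.30, Hdac10 with 13.9 ± 3.40, Hdac11 with 12.3 ± 1.40, Hdac6 with 11.5 ± 2.01 and Hdac9 with 2.81 ± 0.47. Hdac11 took 6.25% to 9.10% of the members' sum and Hdac4 24.5% to 40.8%. Hdac4 overlapped Hdac5 over the 7 libraries, and Hdac5 overlapped Hdac7. Hdac10, Hdac11 and Hdac6 overlapped each other, whereas Hdac7 stood clear above and Hdac9 clear below them. The hippocampal means stand beside these as 5.61 for Hdac4, 2.11 for Hdac7, 1.82 for Hdac10 and 88.3 for Hdac11. The sets differ in tissue, in compartment (nuclei against total RNA), in library chemistry (SMART-Seq v4 against 3′ ends) and in cell type, which cannot be told apart, so no test was made between them. Of 8 astrocyte markers, 5 were higher in every nuclear library than in every hippocampal one, and 8 of 8 neuron markers were lower, but oligodendrocyte markers still summed to 464 to 1294 FPKM.

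Loss of Hdac1 went with no called change of a member in these nuclei (0 of 7, background 2.58% of 15070 genes). Hdac4 was 32.3, 64.0 and 71.2 FPKM in controls and 44.7, 39.5, 55.5 and 61.0 in Hdac1 cKO nuclei, with the lowest and highest library both in the control group. Hdac10 was 17.7, 13.5 and 15.5 FPKM in controls and 17.2, 10.8, 14.5 and 8.30 in Hdac1 cKO nuclei. Its log2 difference of -0.31 (SE 0.23, limma adjusted p = 0.984) was the largest of the 7, and its groups overlapped. Without Hdac1 cKO 4 it was -0.14, and without control 1 the difference of Hdac4, -0.44, was the larger one.

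Hdac5 (32.1, 34.5 and 32.2 against 28.4, 34.9, 29.5 and 32.8 FPKM) and Hdac7 (25.6, 26.9 and 27.2 against 26.7, 26.3, 29.9 and 22.2) were the steadiest members of the nuclei. Hdac6 was 10.1, 9.53 and 12.1 FPKM in controls against 14.5, 9.87, 10.5 and 13.8 in Hdac1 cKO nuclei, a log2 difference of 0.17 (SE 0.19). That difference was smaller without Hdac1 cKO 1 and larger without control 4, each by more than 1.5 times. Hdac11 was 11.6, 13.0 and 13.5 against 12.4, 12.5, 13.4 and 9.42, a difference of -0.09 (SE 0.17). These groups overlapped for each gene. Hdac9 was 2.49, 2.91 and 2.84 against 3.31, 3.06, 1.91 and 3.13, and Hdac1 cKO 3 was the single low library. The intervals stayed within 1.5-fold in FPKM + 1 for Hdac5, Hdac7, Hdac9 and Hdac11 and reached beyond it for Hdac4, Hdac6 and Hdac10, so larger changes of the last 3 were not resolved with 3 and 4 mice.

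**Figure D5:**
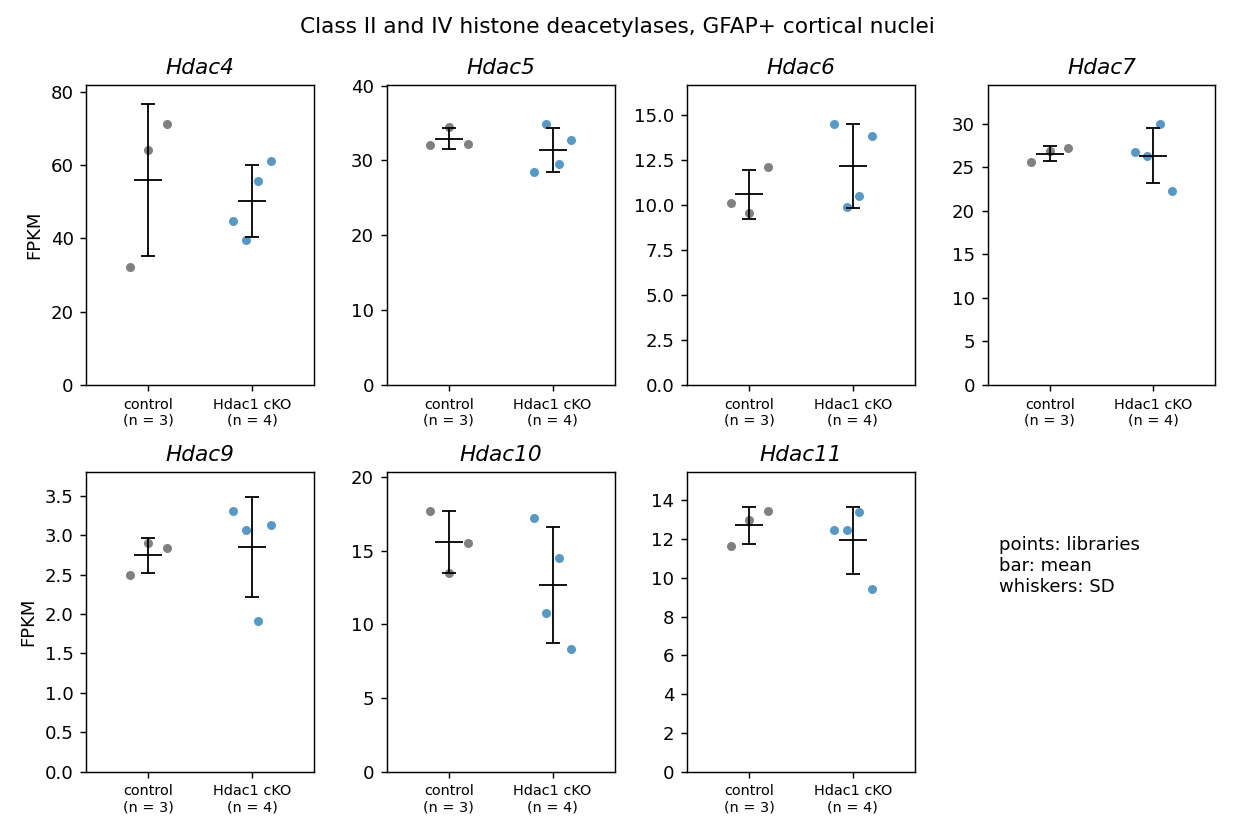
FPKM of each gene (y axis, from 0, own scale per panel) in GFAP+ cortical nuclei of 3 control and 4 Hdac1 cKO mice, with points for mice, a bar for the mean and whiskers for the SD. Both groups overlap in every panel, and Hdac4 leads with values of 32.3 to 71.2 FPKM.

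The proteins that act with these enzymes were listed as 8 groups with 73 entries, of which 69 were tested in each hippocampal comparison and 70 in the nuclei. In 5XFAD against control, in compound against 5XFAD, in 5XFAD averaged over both genotypes and in the nuclei 0 of them were called, where 2.95%, 1.28%, 2.22% and 2.58% of all genes were. In compound against control it was also 0, where 4.24% of all genes were called. Called were 2 of 69 (2.90%, all genes 3.36%) in Hdac1 cKO against control, 1 of 69 (1.45%, all genes 1.33%) for averaged Hdac1 loss and 3 of 69 (4.35%, all genes 4.07%) in the interaction. The shares lie near or below those of all genes, so these counts are no result about the listed genes in particular. MEF2 factors, the partners of class IIa enzymes, were tested for Mef2a and Mef2c in hippocampus, and Mef2b and Mef2d were under the filter there (means of 0.212 and 0.380 FPKM). The 15 kinases of class IIa enzymes (CaM kinases, protein kinase D, salt-inducible kinases and Mark2) gave 0 calls in every comparison. So did the 14-3-3 and export genes (7 tested in hippocampus), the 8 genes of the NCoR/SMRT complex and the 4 genes tied to HDAC11.

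In 3 groups a gene passed a threshold. Among 8 neuronal genes regulated by MEF2, Nr4a1, an activity-induced nuclear receptor, rose in Hdac1 cKO hippocampus without overlap, from 2.74 ± 0.93 to 6.49 ± 1.60 FPKM (log2 difference 1.01, SE 0.20, limma adjusted p = 0.0780). Leaving out any single mouse gave 0.92 to 1.16. With the choroid plexus score as a covariate the difference was 0.40 (limma adjusted p = 0.746) and was no longer called. In that fit the only control at a low score is control 1, which had the highest Nr4a1 of the controls (4.05 FPKM). The interaction of Nr4a1 was -0.88 (SE 0.29, limma adjusted p = 0.385), and that of Arc, a synaptic immediate early gene, was -0.60 (SE 0.29, limma adjusted p = 0.549). Both met the DEG rule, but Arc did not with the covariate (-0.45) or when any of several single mice was left out. The other 7 genes of this group were not called in Hdac1 cKO mice. Among 14 substrates and partners of HDAC6, only the tubulin gene Tuba1c was called, falling by 2.11 on the log2 scale in Hdac1 cKO mice (SE 0.50, limma adjusted p = 0.162). Control libraries had 0.865, 8.76, 10.3 and 8.13 FPKM of Tuba1c, the low value being control 1, which is also the control with low choroid plexus markers. Leaving out any single mouse gave -2.72 to -1.85 for Tuba1c. With the choroid plexus score as a covariate the difference was -0.067 (limma adjusted p = 0.976) and was no longer called. That fit again has control 1 as its only control at a low score. Hdac1 loss averaged over both backgrounds gave -1.05 for Tuba1c (SE 0.38, limma adjusted p = 0.353), which became 0.10 with the covariate, and the interaction was 2.13 (SE 0.75, adjusted p = 0.421). Among polyamine genes, 11 of 12 were tested. Sat1, the acetyltransferase that starts polyamine breakdown, rose from 39.1 ± 3.91 to 59.0 ± 7.63 FPKM in compound mice (log2 difference 0.58, SE 0.11, limma adjusted p = 0.0438). On FPKM + 1, the scale of the fits, Sat1 lay just under the fold of the DEG rule, while the ratio of its FPKM means lay just above it. In the fit over all 4 hippocampal groups its adjusted p was 0.131 and with the choroid plexus covariate 0.439. In the same comparison 6 of 8 microglia markers (median log2 difference of the 8, 1.23) and 2 of 8 astrocyte markers were called higher, and their part in the Sat1 value was not tested.

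Beside them, the class I enzymes measured in the same fits were called only for Hdac1 itself. Hdac1 fell by 1.44 on the log2 scale when averaged over both backgrounds (SE 0.12, limma adjusted p = 4.19e-07). Its nearest relative Hdac2 was not called, with a log2 difference of -0.16 (SE 0.12, adjusted p = 0.701) in that comparison.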

How the data were processed

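The authors deposited 1 FPKM value per gene and sample, computed with Cufflinks 2.0.0 and the UCSC mm9 annotation from TopHat alignments of collapsed reads. Hippocampal RNA was sequenced from its 3′ ends (Digital Gene Expression) and that of the GFAP+ nuclei after SMART-Seq v4. Whether the same alignment was used for the nuclei is not given in the sources used here. FPKM is scaled to library size and transcript length, and no further normalization was added. Of 34 samples, 27 were used. Control 2 of the nuclei and the 6 ChIP-seq samples were left aside.

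Genes averaging 0.5 FPKM or more in the samples compared were tested as log2(FPKM + 1) with limma 3.58.1 (R 4.3.3), with trend and robust variances, and all p-values were adjusted over all genes tested. Each 2-group comparison used its own groups, and the averaged and interaction terms used all 20 hippocampal mice. Levels were summarised in Python 3.11.15. Fragments were estimated from the step between low values of genes with a single transcript, and only 57.6% to 67.8% of low values lay within 0.15 of a whole number, so they are approximate. Exact permutation tests were used for Hdac1. Fits were tested on simulated data with 200 genes shifted by 1.5 on the log2 scale, well above the 1.5-fold limit of the DEG rule. For Hdac1 cKO against control 98.5% of them met that rule and 95.5% had an adjusted p under 0.05, and for the nuclei 96.5% and 73.5%. Smaller changes were not simulated.

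All members were described in every comparison. From the 8 lists of partner genes and the class I list, genes that were DEGs or had an adjusted p under 0.05 were named, up to 4 per list and comparison (marker lists are given as counts), together with the 3 genes most correlated with each member. The members and lists were chosen with earlier results of these data known. The alternatives were a pseudocount of 0.1, no filter or 1 FPKM, quantile normalization, median scaling, plain limma, a replicate block, a choroid plexus covariate, 1 fit over all hippocampal groups, and each mouse left out. No batch is given in the sources used here. Each mouse is 1 library, so p-values measure the spread between mice and their libraries.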

Additional observations from a re-analysis of the deposited data

Results flagged for a closer look

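Hdac9 in GFAP+ nuclei of Hdac1 cKO mouse 3 was 1.91 FPKM, while the other 3 mice of that group had 3.06 to 3.31. On the log2(FPKM + 1) scale the gap to the nearest mouse was 0.849 of the group's range, above the 95% limit of 0.829 of Dixon's test for 4 samples. On that scale it was the only such value among 35 combinations of a member and a group, and chance alone would give about 1 in 20. The result depends on the scale. On FPKM the gap was 0.823, under the limit, while Hdac10 in control 1 (3.33 FPKM, gap 0.8295, limit 0.829) and Hdac4 in 5XFAD 2 (8.26 FPKM, gap 0.667, limit 0.625) lay above theirs.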

How the results depend on the processing

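No member had an adjusted p under 0.05 in any of 1211 recomputed values (smallest 0.394), and 5 met the unadjusted rule, all of them Hdac4. With the choroid plexus covariate 1 member, Hdac4, was called in Hdac1 cKO against control (0.91) and 1 in the interaction (-0.77), and the cause was not tested. Leaving out 1 mouse at a time gave 0 to 1 members called in the interaction and 0 in the other comparisons. Counts over all genes that moved by more than 1.5 times were 839 with the covariate for Hdac1 cKO against control (480 in the main fit) and, with a pseudocount of 0.1, 641 for 5XFAD against control (425), 325 for compound against 5XFAD (184), 384 for averaged Hdac1 loss (191) and 582 for averaged 5XFAD (320), and the cause was not tested. Of 264 values of list genes, 36 were no longer called. By counting error, depth limits Hdac10 and Hdac7 most in the hippocampus (SD 22.3% and 16.1%) and Hdac9 in the nuclei (9.03%).

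For the members, signs changed only where the value was at most 0.10 in size in the main fit. Tuba1c under averaged Hdac1 loss, a called value of -1.05, also changed sign. With the covariate they became 0.0864, 0.0825, 0.0696 and -0.52 for Hdac6, Hdac7, Hdac9 and Hdac10 in Hdac1 cKO against control. They became 0.0484, 0.0678 and 0.0891 for Hdac5, Hdac7 and Hdac9 in compound against control, -0.0906 for Hdac10 and 0.0961 for Tuba1c under averaged Hdac1 loss, 0.0417 for Hdac4 under averaged 5XFAD and 0.0607 for Hdac10 in the interaction. Compound against control gave -0.00018 for Hdac4 and 0.0161 for Hdac10 with the pseudocount of 0.1, and 0.0342 and 0.0045 for Hdac10 with quantile normalization and median scaling. Quantile normalization gave -0.0131 for Hdac11 under averaged Hdac1 loss.

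Mice with the same number did not deviate together (27 hippocampal pairs, r from -0.11 to 0.09, and 3 pairs of nuclei, r from -0.04 to 0.05). No pairing by number was seen, but this check cannot exclude one. A replicate block called 0 members in each comparison and 499 genes for Hdac1 cKO against control, and 2 of 20 hippocampal libraries correlated best with their own number. With the block the sign changed for Hdac10 in 5XFAD against control (0.15) and compound against 5XFAD (-0.0302), Hdac4 (-0.0655) and Hdac7 (0.0070) in compound against control, Hdac4 (-0.0040) and Hdac11 (-0.0134) under averaged Hdac1 loss, and Hdac4 (0.0121) and Hdac9 (-0.0051) in the nuclei.

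Leaving out 1 mouse changed a sign within these ranges. Hdac1 cKO against control gave -0.13 to 0.037 for Hdac6, -0.14 to 0.015 for Hdac7 and -0.051 to 0.29 for Hdac10. 5XFAD against control gave -0.15 to 0.019 for Hdac6 and -0.14 to 0.20 for Hdac10. Compound against control gave -0.19 to 0.15 for Hdac4, -0.064 to 0.032 for Hdac5, -0.15 to 0.0070 for Hdac7 and -0.13 to 0.21 for Hdac10, and compound against 5XFAD -0.076 to 0.13 for Hdac10. Averaged Hdac1 loss gave -0.075 to 0.092 for Hdac4, -0.074 to 0.0088 for Hdac5, -0.018 to 0.15 for Hdac10 and -0.033 to 0.053 for Hdac11. Averaged 5XFAD gave -0.11 to 0.053 for Hdac4, -0.028 to 0.055 for Hdac5, -0.0020 to 0.086 for Hdac7 and -0.11 to 0.062 for Hdac10. The interaction gave -0.16 to 0.019 for Hdac7 and -0.27 to 0.066 for Hdac10. The nuclei gave -0.44 to 0.12 for Hdac4, -0.083 to 0.055 for Hdac7, -0.034 to 0.15 for Hdac9 and -0.15 to 0.0085 for Hdac11.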
